A study of Mus musculus with 12 samples.

Results

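The 8 genes described here are the core enzymes of hepatic gluconeogenesis and 2 of their regulators, taken as a named list from 19937 genes measured in mouse liver. The list holds pyruvate carboxylase (Pcx), the cytosolic and mitochondrial phosphoenolpyruvate carboxykinases (Pck1 and Pck2), fructose-1,6-bisphosphatase 1 (Fbp1), the glucose-6-phosphate transporter (Slc37a4), the catalytic subunit of glucose-6-phosphatase (G6pc), the coactivator Ppargc1a and the forkhead transcription factor Foxo1. All 8 passed the filter on low values. RNA from 12 livers of male C57Bl/6 mice was hybridised to Affymetrix whole-transcript arrays, one array per animal. The 4 groups of 3 mice were HDAC6 Y/- knockouts given dexamethasone, knockouts given vehicle, wild-type mice given dexamethasone, and wild-type mice given vehicle. Dexamethasone, a synthetic agonist of the glucocorticoid receptor, was injected intraperitoneally at 1 mg/kg over 3 weeks. All mice had free access to food, and the labels used here do not give the time of collection or any fast before it. HDAC6 is a largely cytoplasmic deacetylase encoded on the X chromosome. The labels used here do not say how the allele was made or in which cells it is missing.

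Gluconeogenesis makes glucose from lactate, amino acids and glycerol, and in the liver it supplies glucose to the blood between meals. It shares most reactions with glycolysis and differs from it at the irreversible steps, which are those run by the enzymes listed here. Pyruvate is carboxylated and then converted to phosphoenolpyruvate, fructose-1,6-bisphosphate is dephosphorylated further up, and in the last step glucose-6-phosphate is carried into the endoplasmic reticulum and split to free glucose. Glucocorticoids and glucagon are known to raise transcription of the rate-setting genes, and insulin lowers it.

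The labels were checked first against the deleted gene. Hdac6 read 3.62, 3.89 and 3.75 (log2 intensity) in knockout livers on dexamethasone and 4.40, 4.07 and 3.90 in knockout livers on vehicle. In wild-type livers it read 5.86, 6.18 and 5.92 on dexamethasone and 6.09, 6.08 and 6.43 on vehicle. Every knockout array lay below every wild-type array, with Hdac6 lower by 4.70-fold under dexamethasone (limma, adjusted p = 1.53e-05) and by 4.22-fold under vehicle (adjusted p = 3.698e-05). A list of 9 hepatocyte markers averaged between 12.10 and 12.25 on the log2 scale in all 12 arrays, and 10 islet and 9 kidney tubule markers averaged between 2.53 and 2.88, near the low end of the arrays. However, 4 arrays stood apart. Wild-type vehicle replicates 1 and 2, wild-type dexamethasone replicate 3 and knockout vehicle replicate 3 carried exocrine pancreas transcripts, with the mean of 16 measured markers of 20 listed at 9.81, 9.64, 7.77 and 8.47, against 3.07 to 3.43 in the other 8 arrays. Summed on the linear scale, these markers reached 147 to 198 in knockout dexamethasone livers, 153 to 8552 in knockout vehicle livers, 158 to 4893 in wild-type dexamethasone livers and 160 to 19342 in wild-type vehicle livers. The dexamethasone and genotype changes of the 8 genes, and calls on the further lists that are lost, are also given without these arrays. That fit keeps 3 knockout dexamethasone, 2 knockout vehicle, 2 wild-type dexamethasone and 1 wild-type vehicle arrays, so the lone wild-type vehicle array is assumed to vary like the others. Counts by separation of the groups are given with all arrays.

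No binding data are used here. The upstream sequence of 3 of the genes is shown because it holds the core of the cAMP response element, the letters through which glucagon signalling is known to act on Pck1 and Ppargc1a. G6pc is shown beside them because it runs the last step together with Slc37a4. Each sequence is the 250 bases before an annotated start, 5' to 3' on the gene's own strand, from RefSeq on GRCm38.p6. Capitals mark TGACG or, on the opposite strand, CGTCA.
Pck1, chr2:173152823-173153072, plus strand: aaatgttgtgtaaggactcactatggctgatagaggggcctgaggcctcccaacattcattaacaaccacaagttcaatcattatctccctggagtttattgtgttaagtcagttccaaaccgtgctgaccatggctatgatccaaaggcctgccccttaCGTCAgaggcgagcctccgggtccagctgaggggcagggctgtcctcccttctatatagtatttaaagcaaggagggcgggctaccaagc
Slc37a4, chr9:44396849-44397098, plus strand: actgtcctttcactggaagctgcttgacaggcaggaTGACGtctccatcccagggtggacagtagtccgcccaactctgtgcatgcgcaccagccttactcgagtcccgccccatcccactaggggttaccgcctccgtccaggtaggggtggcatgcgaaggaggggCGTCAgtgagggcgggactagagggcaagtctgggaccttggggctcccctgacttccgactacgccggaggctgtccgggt
Ppargc1a, chr5:51567726-51567975, minus strand: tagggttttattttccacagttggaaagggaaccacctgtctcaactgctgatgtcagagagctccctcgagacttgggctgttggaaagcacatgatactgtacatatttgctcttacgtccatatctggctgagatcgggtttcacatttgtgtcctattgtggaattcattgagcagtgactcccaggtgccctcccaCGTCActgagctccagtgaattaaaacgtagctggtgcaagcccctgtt
G6pc, chr11:101367466-101367715, plus strand: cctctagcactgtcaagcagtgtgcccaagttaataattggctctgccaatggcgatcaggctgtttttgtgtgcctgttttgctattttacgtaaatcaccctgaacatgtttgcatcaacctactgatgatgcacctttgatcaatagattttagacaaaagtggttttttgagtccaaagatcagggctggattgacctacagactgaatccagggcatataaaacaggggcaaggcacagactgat
Counting back from the start, the match began at position -90 in Pck1 and at position -49 in Ppargc1a. The Ppargc1a start shown lies inside the annotated span of its gene (51454249 to 52115853). Whether its match is the known glucagon-responsive site was not tested. Slc37a4 had matches at positions -214 and -82 of the start shown. Its neighbouring upstream start overlaps that window, and there the first of these matches lies at position -61. All 8 genes were found in the RefSeq table, with 11 annotated starts, and TGACG was present on either strand before 17.8% of 32851 mouse starts, so a match on its own is common. The full element TGACGTCA (1.55% of starts), the glucocorticoid receptor core TGTTCT (16.1%), the forkhead letters GTAAACA (3.17%), the C/EBP letters TTGCNNAA (9.56%) and the HNF4 letters CAAAGTCCA (0.384%), each searched on both strands, were not among the letters of any of the 11 windows. The glucocorticoid palindrome, AGAACA and TGTTCT with 3 bases between them, was likewise not in these windows, and it was in 0.00913% of all starts. These counts describe the windows only.

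**Figure D1:**
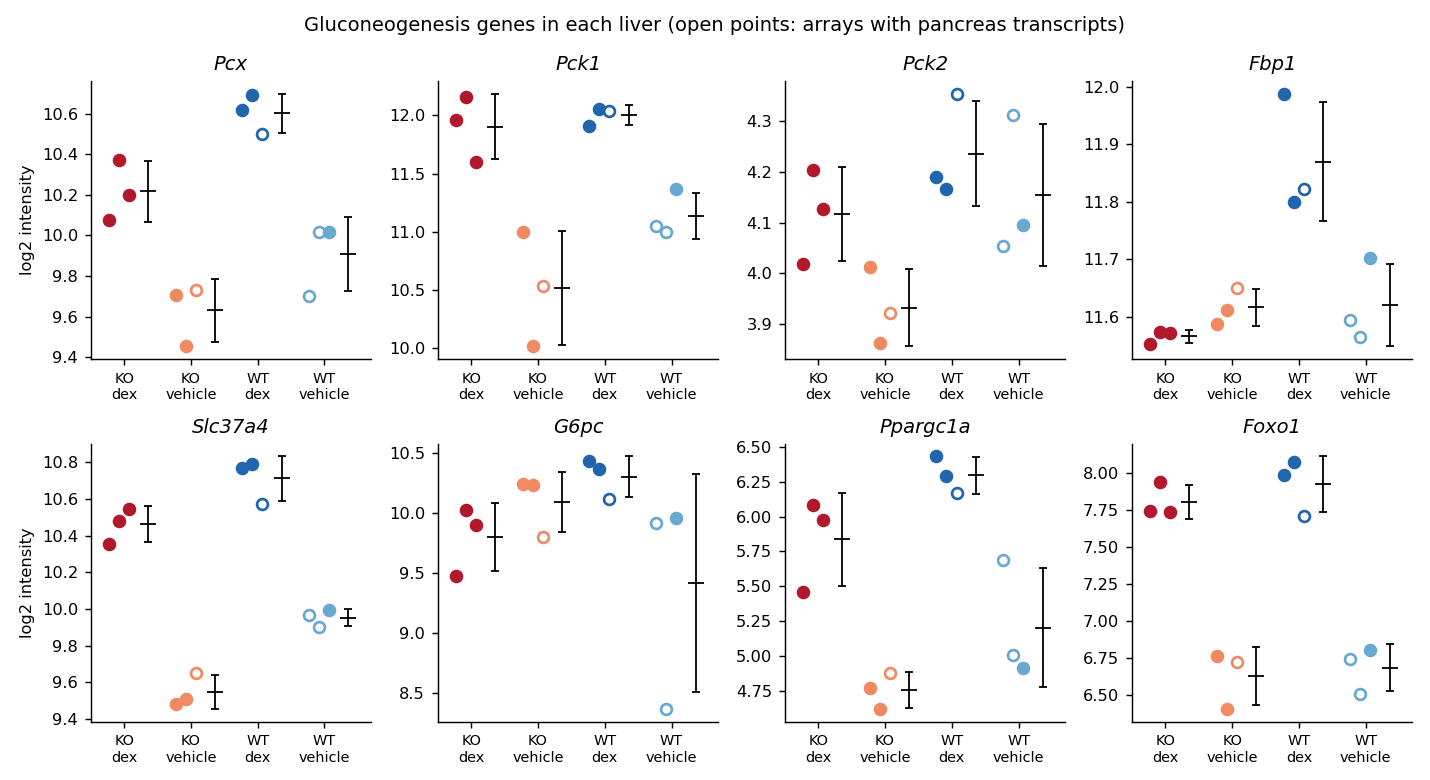
Log2 intensity of each of the 8 genes (vertical axis, a separate scale per gene) in every liver, with knockout dexamethasone, knockout vehicle, wild-type dexamethasone and wild-type vehicle arrays from left to right. Bars give the group mean and SD (n = 3 arrays), and open points mark the 4 arrays with pancreas transcripts. Slc37a4 and Foxo1 separate the treatments in both genotypes, while the G6pc treatment groups overlap in knockout livers and are separate in wild-type livers.

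Under dexamethasone, 5 of the 8 genes rose in knockout livers and 5 of the 8 rose in wild-type livers, and they were in both cases Pcx, Pck1, Slc37a4, Ppargc1a and Foxo1. None of the 8 fell in either genotype. For comparison, dexamethasone raised 4.38% and lowered 3.92% of the 17904 genes tested in knockout livers, and raised 4.57% and lowered 6.95% in wild-type livers, at a limma adjusted p under 0.05. The median log2 change of the 8 genes was 0.75 in knockout livers, against -0.01 over all genes tested, and 0.81 in wild-type livers, against 0.01 over all genes. The 8 genes were chosen with earlier results of these data known, so these values are not a test of the list. In bulk liver RNA, fewer cells of a type and less RNA per cell cannot be told apart.

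Pcx (probe set 10460400) makes oxaloacetate from pyruvate in mitochondria and so opens the pathway from lactate and alanine. It read 10.08, 10.37 and 10.20 in knockout dexamethasone livers and 9.71, 9.45 and 9.73 in knockout vehicle livers. The wild-type values of Pcx were 10.62, 10.69 and 10.50 on dexamethasone and 9.70, 10.02 and 10.02 on vehicle. Dexamethasone arrays lay above vehicle arrays in each genotype without overlap. Pcx rose by 1.501-fold in knockout livers (log2 change 0.59, SE 0.12, adjusted p = 0.006994) and by 1.61-fold in wild-type livers (0.69, SE 0.12, adjusted p = 0.002025). Without the 4 arrays with pancreas transcripts its wild-type change was 0.64 but missed the threshold (adjusted p = 0.08938), and its knockout change was 0.64 (adjusted p = 0.01817).

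Pck1 (probe set 10479047) converts oxaloacetate to phosphoenolpyruvate in the cytosol and is the classic transcriptionally controlled enzyme of the pathway. It read 11.96, 12.15 and 11.60 in knockout dexamethasone livers and 11, 10.02 and 10.53 in knockout vehicle livers. For wild-type livers, Pck1 read 11.91, 12.06 and 12.04 on dexamethasone and 11.05, 10.997 and 11.37 on vehicle. Treated livers lay above untreated livers of their genotype without overlap. The dexamethasone groups averaged 11.90 ± 0.28 in knockout and 12.00 ± 0.08 in wild-type livers, while the vehicle groups averaged 10.52 ± 0.49 in knockout and 11.14 ± 0.20 in wild-type livers (SD, n = 3 each). Pck1 rose by 2.62-fold in knockout livers (log2 change 1.39, SE 0.21, adjusted p = 7.524e-04) and by 1.82-fold in wild-type livers (0.87, SE 0.21, adjusted p = 0.01494). The wild-type call was lost without single arrays while the change stayed close to its size. It was 0.82 without wild-type vehicle replicate 1 (adjusted p = 0.05294), 0.80 without wild-type vehicle replicate 2 (adjusted p = 0.05402) and 0.84 without wild-type dexamethasone replicate 2 (adjusted p = 0.0551). Without the 4 arrays with pancreas transcripts the wild-type change was 0.62 (adjusted p = 0.4791), and the knockout change was 1.40 (adjusted p = 0.01446).

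Pck2 (probe set 10415248), the mitochondrial isoform, makes phosphoenolpyruvate directly from mitochondrial oxaloacetate. It read 4.02, 4.20 and 4.13 in knockout dexamethasone livers, against 4.01, 3.86 and 3.92 in knockout vehicle livers. In wild-type livers it read 4.19, 4.17 and 4.35 on dexamethasone and 4.05, 4.31 and 4.10 on vehicle. The knockout groups just missed overlapping, and the wild-type groups overlapped. Pck2 did not pass the test in knockout livers (log2 change 0.18, SE 0.10, adjusted p = 0.3643) or in wild-type livers (0.08, SE 0.10, adjusted p = 0.6894), and without the 4 arrays its changes were again 0.18 in knockout and 0.08 in wild-type livers.

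Fbp1 (probe set 10410007) removes a phosphate from fructose-1,6-bisphosphate, opposing phosphofructokinase. It read 11.55, 11.57 and 11.57 in knockout dexamethasone livers and 11.59, 11.61 and 11.65 in knockout vehicle livers, so that all 3 treated knockouts lay just below all 3 untreated ones, as held for 12.6% of all genes tested. The wild-type values of Fbp1 were 11.99, 11.80 and 11.82 on dexamethasone, against 11.59, 11.57 and 11.70 on vehicle, with all 3 treated livers above. Neither difference passed the test, with a log2 change of -0.05 (SE 0.08, adjusted p = 0.8532) in knockout livers and 0.25 (SE 0.08, adjusted p = 0.07216) in wild-type livers. The highest values of the whole set for Fbp1 were thus the 3 wild-type dexamethasone livers. The Fbp1 changes without the 4 arrays were -0.03 in knockout livers and 0.19 in wild-type livers (adjusted p = 0.5959).

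Slc37a4 (probe set 10584741) carries glucose-6-phosphate across the membrane of the endoplasmic reticulum to the phosphatase. It read 10.36, 10.48 and 10.55 in knockout dexamethasone livers and 9.48, 9.51 and 9.65 in knockout vehicle livers. For wild-type livers, Slc37a4 read 10.77, 10.79 and 10.57 on dexamethasone and 9.96, 9.90 and 9.99 on vehicle. The ranges of the 4 groups did not touch, with the order, from high to low, wild type on dexamethasone, knockout on dexamethasone, wild type on vehicle and knockout on vehicle. Slc37a4 rose by 1.89-fold in knockout livers (log2 change 0.92, SE 0.09, adjusted p = 3.289e-05) and by 1.69-fold in wild-type livers (0.76, SE 0.09, adjusted p = 1.563e-04). Both rises of Slc37a4 remained past the threshold when the 4 arrays with pancreas transcripts were left out, at 0.97 in knockout livers (adjusted p = 6.509e-04) and 0.79 in wild-type livers (adjusted p = 0.01721).

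G6pc (probe set 10381387), the phosphatase that releases free glucose, did not pass the test in either genotype. It read 9.48, 10.02 and 9.89 in knockout dexamethasone livers and 10.24, 10.23 and 9.80 in knockout vehicle livers. In wild-type livers it read 10.43, 10.36 and 10.11 on dexamethasone and 9.91, 8.36 and 9.96 on vehicle. The knockout groups overlapped, whereas all 3 treated wild-type livers lay above the untreated ones, among which replicate 2 was lower than every other array of the study. The log2 change was -0.29 (SE 0.33, 95% interval -0.999 to 0.41, adjusted p = 0.7568) in knockout livers and 0.89 (SE 0.33, 95% interval 0.18 to 1.59, adjusted p = 0.108) in wild-type livers. The wild-type size rested on that 1 array: it was 0.36 without wild-type vehicle replicate 2, and 1.16 without wild-type vehicle replicate 3, where it passed (adjusted p = 0.04757). Wild-type vehicle replicate 2 is also among the arrays with pancreas transcripts, and without all 4 of them the change was -0.44 (adjusted p = 0.1592) in knockout livers and 0.44 (adjusted p = 0.3697) in wild-type livers.

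Ppargc1a (probe set 10529979) encodes PGC-1alpha, a coactivator that hepatocytes induce in fasting and that raises Pck1 and G6pc transcription. It read 5.46, 6.08 and 5.97 in knockout dexamethasone livers and 4.77, 4.62 and 4.88 in knockout vehicle livers. The wild-type values of Ppargc1a were 6.43, 6.29 and 6.17 on dexamethasone and 5.69, 5.01 and 4.92 on vehicle. Every treated liver lay above the untreated livers of its genotype, with wild-type vehicle replicate 1 apart from the other untreated ones and above the lowest knockout dexamethasone liver. Ppargc1a rose by 2.11-fold in knockout livers (log2 change 1.08, SE 0.20, adjusted p = 0.003189) and by 2.13-fold in wild-type livers (1.09, SE 0.20, adjusted p = 0.002665). It is the only gene of the 8 with 2 probe sets. The dimmer set gave 1.07 in wild-type livers (adjusted p = 0.00482) and 0.71 in knockout livers, where it missed the threshold (adjusted p = 0.05883). With the brighter set and without the 4 arrays the changes were 1.14 in knockout livers (adjusted p = 0.00545) and 1.44 in wild-type livers (adjusted p = 0.01331).

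Foxo1 (probe set 10491962) binds the promoters of Pck1 and G6pc and is shut out of the nucleus when insulin signalling phosphorylates it, a step that RNA does not show. It read 7.74, 7.94 and 7.73 in knockout dexamethasone livers and 6.76, 6.41 and 6.73 in knockout vehicle livers. For wild-type livers, Foxo1 read 7.98, 8.07 and 7.71 on dexamethasone and 6.74, 6.51 and 6.81 on vehicle. The 6 treated livers all lay above the 6 untreated ones, whichever the genotype. Foxo1 rose by 2.26-fold in knockout livers (log2 change 1.17, SE 0.13, adjusted p = 6.57e-05) and by 2.35-fold in wild-type livers (1.24, SE 0.13, adjusted p = 4.41e-05). With those 4 pancreas-bearing arrays omitted, the Foxo1 changes were 1.22 in knockout livers (adjusted p = 7.389e-04) and 1.22 in wild-type livers (adjusted p = 0.007905).

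**Figure D2:**
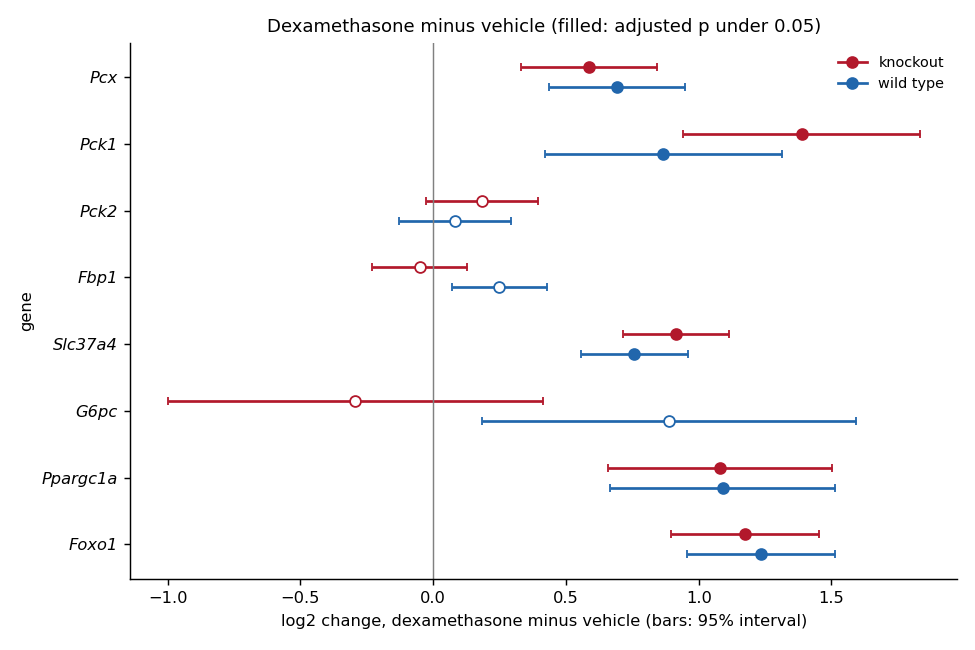
Log2 change of each gene (rows) with dexamethasone minus vehicle (horizontal axis), knockout above wild type, with 95% intervals from the limma fit over 12 arrays. Filled points passed an adjusted p of 0.05. The same 5 genes are filled in both genotypes, and G6pc and Fbp1 lie on opposite sides of 0 in knockout and wild-type livers.

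Counted by separation of the arrays, 6 of the 8 genes had all treated knockout livers above all untreated ones, which held for 11.7% of all genes tested. In wild-type livers 7 of the 8 did, against 12.5% of all genes. Pooled over genotypes, the dexamethasone change was 1.20 for Foxo1 (adjusted p = 9.274e-07), 1.13 for Pck1 (adjusted p = 1.126e-04), 1.08 for Ppargc1a (adjusted p = 9.82e-05), 0.84 for Slc37a4 (adjusted p = 1.323e-06) and 0.64 for Pcx (adjusted p = 1.269e-04), in a comparison that raised 7.29% of all genes. Pck2, Fbp1 and G6pc stayed short of the threshold there too (adjusted p = 0.2427, 0.31 and 0.4703). Without the 4 arrays, the pooled changes were 1.22 for Foxo1, 1.01 for Pck1, 1.29 for Ppargc1a, 0.88 for Slc37a4 and 0.64 for Pcx.

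Markers of other cell types moved with dexamethasone. Of 13 Kupffer cell and macrophage markers, none fell and 1 rose in knockout livers, beside 3.92% and 4.38% of all genes, and 10 fell and 1 rose in wild-type livers, beside 6.95% and 4.57%. Leaving out the pancreas-bearing arrays, none of the 13 passed in wild-type livers, where 12 lay below 0 with a median log2 change of -0.74. Their summed linear intensity was 1348 to 2280 in knockout dexamethasone livers, 1469 to 1916 in knockout vehicle livers, 870 to 1209 in wild-type dexamethasone livers and 1600 to 2573 in wild-type vehicle livers. Of 10 endothelial markers, 4 fell and 1 rose in knockout livers, and 5 fell and 1 rose in wild-type livers, but 1 fell and 1 rose in each without the 4 arrays. Their sums were 1505 to 1764 in knockout dexamethasone, 1732 to 2021 in knockout vehicle, 1377 to 1521 in wild-type dexamethasone and 1738 to 2155 in wild-type vehicle livers. The hepatocyte list, in contrast, summed to 49702 to 52011 in knockout dexamethasone, 48861 to 49877 in knockout vehicle, 47634 to 50829 in wild-type dexamethasone and 46911 to 49246 in wild-type vehicle livers. The part of these shifts in the wild-type changes of the 8 genes was not tested.

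Whether the response to dexamethasone depended on HDAC6 was asked with the interaction, the change in knockout livers minus the change in wild-type livers. None of the 8 genes passed, nor did any of the 17904 (0% called; 1109 had an unadjusted p under 0.05), and the 2 genes of the list with an unadjusted p under 0.05 were G6pc and Fbp1. For G6pc the difference was -1.18 (SE 0.46, 95% interval -2.18 to -0.18, adjusted p = 0.7538). It was -0.87 without the 4 arrays with pancreas transcripts, and ran between -1.46 and -0.66 when each array was left out in turn. For Fbp1 it was -0.30 (SE 0.12, 95% interval -0.55 to -0.05, adjusted p = 0.7538), and -0.23 without the 4 arrays. Of the genes that rose in both genotypes, Pck1 had the widest interval, with a difference of 0.52 (95% interval -0.11 to 1.15). The intervals were -0.47 to 0.26 for Pcx, -0.13 to 0.44 for Slc37a4, -0.61 to 0.59 for Ppargc1a and -0.46 to 0.33 for Foxo1, and differences inside these intervals were not resolved with 3 arrays per group. For Ppargc1a the difference was -0.01 with the brighter probe set and -0.37 with the dimmer one (adjusted p = 0.8959).

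The direct comparison of genotypes showed small differences, none of which passed the test. Under dexamethasone 0 of the 8 genes were called in knockout against wild-type livers, as were 0.0279% of all genes, and under vehicle 0 of 8, against 0.101% of all genes. All 8 log2 changes under dexamethasone were below 0, with a median of -0.28, against -0.003 over all genes. Under vehicle 7 of 8 were below 0, with a median of -0.25, against 4e-04 over all genes. These comparisons share their arrays with the dexamethasone comparisons, so the values stand side by side and are not independent of them. At an unadjusted p under 0.05 in limma there were 4 of the 8 genes under dexamethasone, beside 1566 of the 17904 genes tested. Under vehicle there were 5 of the 8, beside 1288 of the 17904. The shared direction of the 8 genes was not tested.

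Slc37a4 had every knockout liver below every wild-type liver within each treatment. Its difference was -0.25 under dexamethasone (SE 0.09, adjusted p = 0.4819) and -0.41 under vehicle (SE 0.09, adjusted p = 0.2902, with an unadjusted p of 7.294e-04). Ppargc1a was likewise separated within each treatment, by -0.46 under dexamethasone (adjusted p = 0.5375) and by -0.45 under vehicle (adjusted p = 0.6769). Its dimmer probe set gave -0.52 under dexamethasone (adjusted p = 0.5281) but only -0.15 under vehicle (adjusted p = 0.9174). Under dexamethasone alone the knockout livers also lay below the wild-type livers for Pcx (-0.38, adjusted p = 0.3783), Fbp1 (-0.30, adjusted p = 0.3069) and G6pc (-0.50, adjusted p = 0.6924). These made 5 of the 8 genes with knockouts wholly below under dexamethasone, against 7.07% of all genes, and 3 of 8 under vehicle, against 6.04% of all genes, the third being Pck2 (-0.22, adjusted p = 0.6858). Without the 4 arrays with pancreas transcripts 0 of the 8 passed either, with Slc37a4 at -0.32 under dexamethasone (adjusted p = 0.5874) and -0.499 under vehicle (adjusted p = 0.7184), and Ppargc1a at -0.52 under dexamethasone (adjusted p = 0.6255) and -0.22 under vehicle (adjusted p = 0.9834).

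For Pck1 and Foxo1 the genotypes overlapped in each treatment. Pck1 differed by -0.62 between genotypes under vehicle (SE 0.21, adjusted p = 0.5327), where knockout replicate 1 reached the lower wild-type values, and by -0.10 under dexamethasone (adjusted p = 0.9236). Foxo1 differed by -0.12 under dexamethasone (adjusted p = 0.8326) and by -0.05 under vehicle (adjusted p = 0.9575). Averaging the genotype difference over treatments, a comparison added after the values were seen, gave its lowest adjusted p of the 8 for Slc37a4 (-0.33, SE 0.07, adjusted p = 0.1135), followed by Pcx (-0.33, SE 0.08, adjusted p = 0.2079) and Ppargc1a (-0.45, SE 0.14, adjusted p = 0.3023), where 0.0503% of all genes were called.

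**Figure D3:**
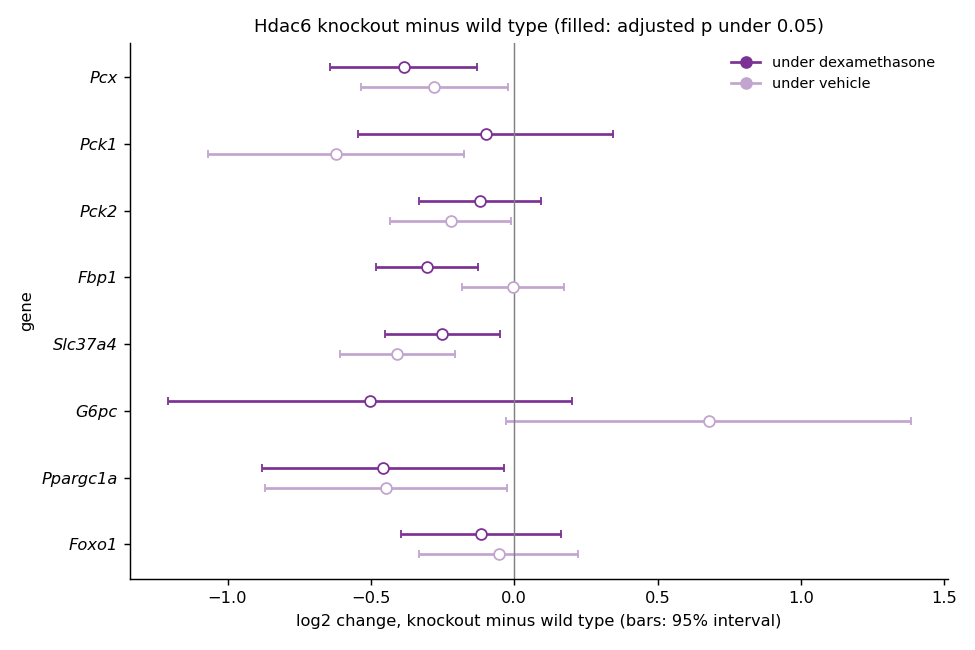
Log2 difference of each gene (rows), knockout minus wild type (horizontal axis), under dexamethasone above vehicle, with 95% intervals from the same fit. Every point is open because none passed an adjusted p of 0.05; all but G6pc under vehicle lie below 0, Fbp1 under vehicle by -0.004.

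The arrays differed among themselves within groups for several of the genes at once. Knockout dexamethasone replicate 1 was the lowest of its group for 6 of the 8 genes, and knockout dexamethasone replicate 2 was above its group mean for all 8. Knockout vehicle replicate 2, wild-type dexamethasone replicate 3 and wild-type vehicle replicate 2 were each the lowest of their group for 5 of the 8. No test was made of this.

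The rest of the pathway was followed through 7 further lists, with 104 of 118 listed genes measured and tested. In knockout livers dexamethasone raised 15 of these (14.4%) and lowered 10 (9.62%), beside 4.38% and 3.92% of all genes tested. In wild-type livers it raised 9 (8.65%) and lowered 12 (11.5%), beside 4.57% and 6.95% of all genes. The lists were chosen with earlier results of these data known, so these shares are not a test of the pathway. Without the 4 arrays with pancreas transcripts, which leaves 1 wild-type vehicle array, fewer of the wild-type changes passed. All 25 changes called in knockout livers with every array kept their sign there, as did all 21 called in wild-type livers. That fit uses part of the same arrays, and these genes were picked by the full fit. The kept signs are therefore no independent check. None of the 104 passed in limma in either genotype comparison or in the interaction, where 15 (dexamethasone), 18 (vehicle) and 12 (interaction) had an unadjusted p under 0.05.

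Among 9 enzymes of the reversible steps and the shuttles, only Got1 passed, the cytosolic aspartate aminotransferase that returns oxaloacetate carbon to the cytosol. It averaged 11.19 ± 0.12 in knockout dexamethasone and 10.06 ± 0.63 in knockout vehicle livers, against 11.30 ± 0.05 in wild-type dexamethasone and 10.15 ± 0.26 in wild-type vehicle livers (SD, n = 3 each). Got1 rose by 2.19-fold in knockout livers (adjusted p = 0.007716) and by 2.23-fold in wild-type livers (adjusted p = 0.005401). Of 17 genes listed under substrate supply, 4 rose and 1 fell in knockout livers, and 3 rose and 2 fell in wild-type livers. The risers include Pdhx (0.83 on the log2 scale in knockout and 0.72 in wild-type livers), which is not itself a supplier of substrate. It belongs to the pyruvate dehydrogenase complex, whose Pdha1 and Pdhb stand in the list of opposing enzymes. Tat, which breaks down tyrosine and is a classic glucocorticoid target, rose by 2.64-fold in knockout and 2.04-fold in wild-type livers. Gpt2, a mitochondrial alanine aminotransferase, rose by 2.15-fold in knockout livers and 1.78-fold in wild-type livers. Without the 4 arrays with pancreas transcripts none of the 17 passed in wild-type livers, where Tat was at 1.03 (adjusted p = 0.08806) and Gpt2 at 0.83 (adjusted p = 0.07523). Slc16a1, a lactate transporter, fell by 0.74 on the log2 scale in knockout livers, and its wild-type change was -0.19 (adjusted p = 0.5846). Aqp9, the glycerol channel of hepatocytes, fell by 0.46 in wild-type livers, and its knockout change was -0.36 (adjusted p = 0.08026).

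In the glucagon and cAMP list of 19 genes, 2 rose and 4 fell in knockout livers, and 1 rose and 3 fell in wild-type livers. Ep300, a histone acetyltransferase that works with CREB, rose by 0.82 in knockout and 0.52 in wild-type livers, the second of these calls being lost without the 4 arrays (0.49, adjusted p = 0.2404). Pde4b, which degrades cAMP, fell by 0.83 in knockout and 1.02 in wild-type livers. Crtc3, a CREB coactivator, fell by 1.25 in knockout livers, and its wild-type change of -0.44 did not pass (adjusted p = 0.07666). In the insulin list of 16 genes, 3 rose and 2 fell in knockout livers, and 1 rose and 3 fell in wild-type livers. Irs1, an adaptor of the insulin receptor, averaged 5.42 ± 0.55 in knockout dexamethasone livers and 6.97 ± 0.10 in knockout vehicle livers, against 6.06 ± 0.12 in wild-type dexamethasone livers and 6.80 ± 0.28 in wild-type vehicle livers. It fell by 1.55 in knockout livers (adjusted p = 4.122e-04) and by 0.74 in wild-type livers (adjusted p = 0.04177), and the wild-type value was -1.002 without the 4 arrays (adjusted p = 0.1947). Foxo3, a relative of Foxo1, rose by 0.63 in knockout livers, and its wild-type change was 0.43 (adjusted p = 0.06104). Pik3r1, the regulatory subunit of PI 3-kinase, had a change of 0.66 in knockout livers, which did not pass (adjusted p = 0.1322), and rose by 0.97 in wild-type livers, a call lost without the 4 arrays (1.28, adjusted p = 0.08835).

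Of 25 nuclear receptors, transcription factors and coregulators, 4 rose and 2 fell in knockout livers, and 2 rose and 2 fell in wild-type livers. Cebpb, a factor that binds the Pck1 promoter, averaged 8.25 ± 0.16 in knockout dexamethasone and 6.84 ± 0.10 in knockout vehicle livers, against 7.83 ± 0.26 in wild-type dexamethasone and 6.88 ± 0.20 in wild-type vehicle livers. Cebpb rose by 1.41 on the log2 scale in knockout livers (adjusted p = 2.762e-05) and by 0.95 in wild-type livers (adjusted p = 6.628e-04). Its relative Cebpd rose by 1.29 in knockout livers and 1.01 in wild-type livers, while Cebpa, which is high in resting hepatocytes, fell by 0.85 in knockout livers and 0.80 in wild-type livers. Neither Cebpa call held without the 4 arrays, at -0.88 in knockout livers (adjusted p = 0.05555) and -0.68 in wild-type livers (adjusted p = 0.3326). Klf15, a factor that controls amino acid breakdown, rose by 0.85 in knockout livers, and its wild-type change was 0.22, which did not pass. Nr2f2, an orphan receptor, fell by 0.97 in knockout livers and 1.20 in wild-type livers. Among 11 AMPK subunits, upstream kinases and deacetylases, Hdac5 fell by 0.82 in each genotype, and Prkab1 fell by 0.72 in wild-type livers, and its knockout change was -0.28 (adjusted p = 0.4246). The wild-type calls were lost without the 4 arrays, at -1.03 for Hdac5 (adjusted p = 0.06514) and -0.78 for Prkab1 (adjusted p = 0.1057).

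Of 7 genes for enzymes that oppose gluconeogenesis, only Pfkfb3 passed. It encodes a bifunctional enzyme that makes fructose-2,6-bisphosphate, an activator of glycolysis and an inhibitor of Fbp1. Pfkfb3 averaged 7.997 ± 0.16 in knockout dexamethasone and 4.996 ± 0.98 in knockout vehicle livers, against 7.87 ± 0.47 in wild-type dexamethasone and 5.12 ± 0.27 in wild-type vehicle livers. It rose by 8.01-fold in knockout livers (adjusted p = 1.705e-04) and by 6.74-fold in wild-type livers (adjusted p = 3.025e-04), and remained past the threshold in each without the 4 arrays (3.18 on the log2 scale in knockout livers, adjusted p = 0.002278, and 2.79 in wild-type livers, adjusted p = 0.03138).

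**Figure D4:**
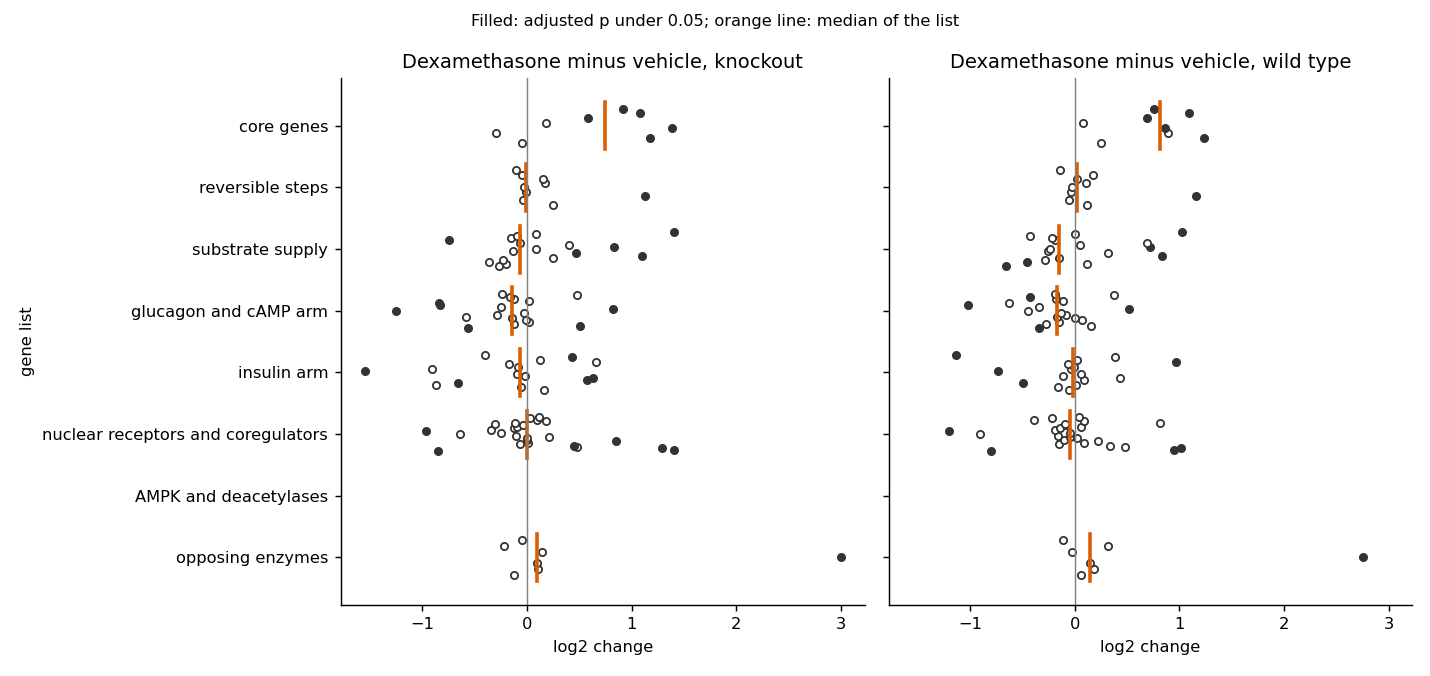
Log2 change with dexamethasone minus vehicle (horizontal axis) of the tested genes in the core list and the further lists (rows). Knockout is in the left panel and wild type in the right. The row for AMPK and deacetylases is empty, so its 11 genes are not drawn. Filled points passed an adjusted p of 0.05 and orange lines give the median of each list drawn. The median is 0.75 (knockout) and 0.81 (wild type) for the core genes and between -0.17 and 0.14 for the other lists. The point at the far right is Pfkfb3.

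Finally, the genes whose profile over the 12 arrays lay closest to each responding gene were sought, by the root mean square difference after centring each gene on its own mean. Closest to Pck1 were Tat (0.158), N4bp2l1 (0.159) and Arhgef3 (0.229), beside an SD of 0.68 for Pck1 itself. Closest to Foxo1 (SD 0.65) were Tango2 (0.129), Sec14l4 (0.153) and Ell2 (0.160). Pcx (SD 0.40) lay closest to Asl (0.120), Nr1i2 (0.122) and Adarb1 (0.123), and Slc37a4 (SD 0.48) to Adarb1 (0.132), Gm826 (0.152) and Chst15 (0.153). Closest to Ppargc1a (SD 0.66) were Ankrd44 (0.219), Fgf1 (0.225) and Timp3 (0.227). Within the list Pcx and Slc37a4 were 0.163 apart, and Pck1 and Foxo1 were 0.277 apart. All 12 points share the treatment contrast, so these distances describe the arrays and carry no test.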

How the data were processed

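Gene expression was measured in 12 livers on Affymetrix whole-transcript arrays, with 3 mice per group. Per the labels, livers were snap frozen and RNA was extracted with Qiagen RNeasy columns. The authors deposited log2 intensity values for 34760 probe sets, made with R 2.10.0 and affy per the submitters' processing notes; the background correction and normalization method are not given in the sources used here. Sorted values of the arrays differ from their mean by at most 0.215, and array medians lie between 3.13 and 3.24, so the deposited arrays have nearly the same distribution. Arrays give no read depth, and their number limits the precision.

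Probe sets were named through GEO's platform annotation: 21640 had 1 gene symbol, 1321 had several and 11799 had none. Of the probe sets of a gene the one with the highest mean was used (954 of 19937 genes had more than 1). Genes above the 20th percentile of their array in at least 3 arrays were kept, 17904 in all. All 12 arrays entered a single model with a mean per group (limma 3.58.1, R 4.3.3), and p-values were adjusted over all kept genes by the Benjamini-Hochberg method at 0.05 in each of 7 comparisons. "Rose" and "fell" mean past that threshold. The fit was tested on simulated data. The animals are separate mice, and no batch is named in the labels. Alternatives were no filter, a 50th percentile filter, quantile normalization, median centring, trend and robust estimates, array weights, the replicate number as a block, only the groups compared, another probe set, leaving out the 4 arrays with pancreas transcripts or using their marker mean as a covariate, and leaving out each array. The members and lists were chosen with earlier results of these data known. The genotype difference averaged over treatments, and the fit without the 4 arrays for the zonation and cell type lists, were added after seeing the data. Genes named from the further lists were picked from those with the lowest p-values per list and comparison, and not all of those are described. Among those left out, Foxk1 (-0.66 in knockout and -0.50 in wild-type livers) and Adcy6 (-0.56 in knockout and -0.34 in wild-type livers) fell in both genotypes. Promoter sequences are RefSeq's.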

Additional observations from a re-analysis of the deposited data

Results flagged for a closer look

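Fbp1 was singled out because its groups separated in opposite directions. All 3 knockout dexamethasone livers lay below all 3 knockout vehicle livers, with means of 11.57 and 11.62, and all 3 wild-type dexamethasone livers lay above all 3 wild-type vehicle livers, with means of 11.87 and 11.62. The difference between these changes, knockout minus wild type, was -0.30 on the log2 scale (-0.2995, SE 0.12), and the interaction test in limma did not pass (adjusted p = 0.7538, unadjusted p = 0.02346). The knockout gap itself was small, with a log2 change of -0.05. Groups of 3 are too small for the test of single outlying arrays, so none was applied.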

How the results depend on the processing

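Over 12 single-array omissions, 5 of the 8 genes passed in knockout livers throughout and 4 to 6 in wild-type livers. None of the 8 passed in a genotype comparison or the interaction. In the same fits, the calls over all genes in either direction ran from 993 to 1603 in knockout livers, against 1485 with every array. In wild-type livers they ran from 1417 to 2165, against 2064. Between genotypes they ran from 1 to 37 under dexamethasone, 5 to 28 under vehicle and 5 to 29 averaged over treatments. For the interaction they ran from 0 to 3. Without the 4 arrays with pancreas transcripts the wild-type dexamethasone count was 3 (1.71% of all genes higher, 559 called in either direction against 2064), and the list counts there were 0 for substrate supply, 1 for the glucagon and cAMP arm, 0 for the insulin arm and 0 for AMPK and deacetylases; fewer arrays enter that fit, and the cause was not tested. With single arrays left out, the wild-type list counts ran from 2 to 5 for the glucagon and cAMP arm and 1 to 5 for the insulin arm, and the knockout counts from 3 to 5 for substrate supply and 2 to 6 for the insulin arm. Fbp1 passed in wild-type livers with trend and robust estimates (0.25, adjusted p = 0.04125).

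Signs turned only for changes that did not pass. G6pc averaged over genotypes was -6e-04 without the 4 arrays, and its averaged genotype difference was -0.0117 with array weights, -0.16 without the 4 arrays and -0.10 with the covariate. Fbp1 between genotypes under vehicle was 0.0175 after quantile normalization. The interaction of Foxo1 was 0.0103 after median centring and 4e-04 without the 4 arrays, and that of Ppargc1a was 0.0617 after median centring. With single arrays left out, Pck1 between genotypes under dexamethasone ran from -0.22 to 0.0536, Fbp1 under vehicle from -0.0314 to 0.0367, Foxo1 under vehicle from -0.14 to 0.0583, the averaged genotype difference of G6pc from -0.17 to 0.22, the interaction of Foxo1 from -0.17 to 0.0282 and that of Ppargc1a from -0.25 to 0.18. The cause was not tested.

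Deviations of same-numbered arrays from their group means correlated at -0.54 to 0.10 over 12 pairs. Wild-type dexamethasone replicate 3 and wild-type vehicle replicate 2, which both carried pancreas transcripts, correlated at 0.40. Such transcripts enter these correlations, so they cannot decide whether replicate numbers pair the animals. With the replicate block 5 genes passed in each genotype, and no other call on the 8 genes changed. Of all member changes under the alternatives, 1185 kept direction and side of the threshold, 6 lost and 2 gained a call and 22 turned sign. Scaling moved the all-gene median by at most 0.07. The arrays give no depth, and 3 per group limit the precision.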

Other observations

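Zonation markers, which bear on where in the lobule the pathway runs, were followed as well. Gluconeogenesis is known as a periportal function. Of 10 periportal markers tested, 1 rose and 1 fell in knockout livers, and 1 rose and 3 fell in wild-type livers, while dexamethasone raised 4.38% (knockout) and 4.57% (wild type) and lowered 3.92% (knockout) and 6.95% (wild type) of all genes. Asl, a urea cycle enzyme, rose by 0.55 on the log2 scale in knockout and 0.53 in wild-type livers, and the adhesion molecule Cdh1 fell by 0.76 in knockout and 0.86 in wild-type livers. Hal, a histidine-degrading enzyme, fell by 0.74 in wild-type livers, where its knockout change of -0.34 did not pass. Of 12 pericentral markers, 1 rose and 1 fell in knockout livers, and 3 rose and 1 fell in wild-type livers. Lgr5, a Wnt target of the cells around the central vein, fell by 1.60 in knockout livers (adjusted p = 3.216e-05) and by 1.77 in wild-type livers (adjusted p = 1.407e-05). Slc1a2, a glutamate transporter found in those cells, rose by 0.64 in knockout and 0.82 in wild-type livers. In the fit without the 4 arrays, chosen for these lists after seeing the data, the knockout counts were the same, none of the periportal markers passed in wild-type livers, and of the pericentral ones Lgr5 did (-2.08, adjusted p = 0.002878).

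Adipocyte markers were followed because Pck1 and Pcx are also transcribed in fat. Adipoq, which only adipocytes make in quantity, averaged 2.21 in knockout dexamethasone, 2.15 in knockout vehicle and 2.14 in wild-type dexamethasone livers. These lay near the 20th percentile of the arrays (2.17 to 2.23), and the wild-type vehicle mean lay above it, at 2.55. The mean of the 9 adipocyte markers was 5.06 and 5.03 in wild-type vehicle replicates 1 and 2, against 4.67 in replicate 3. The other arrays with pancreas transcripts were also the highest of their groups, at 5.06 (wild-type dexamethasone) and 4.87 (knockout vehicle). Knockout dexamethasone arrays, without such transcripts, read 4.78 to 5.07. Of 9 adipocyte markers tested, 2 rose and 1 fell in knockout livers, beside 4.38% and 3.92% of all genes. In wild-type livers 1 rose and 1 fell, beside 4.57% and 6.95% of all genes. Cidec, a lipid droplet protein that fatty hepatocytes also make, rose by 1.15 in knockout livers (adjusted p = 0.02148) and 1.78 in wild-type livers (adjusted p = 0.001107). Fabp4, a fatty acid carrier, rose by 0.76 in knockout livers (adjusted p = 0.0164), with a wild-type change of 0.36 (adjusted p = 0.2434). Car3, a carbonic anhydrase that hepatocytes also make, fell by 0.37 in knockout and 0.50 in wild-type livers. With the 4 pancreas-bearing arrays left out, the Cidec change was 1.10 in knockout and 2.05 in wild-type livers. The Fabp4 change was then 0.87 in knockout and 0.76 in wild-type livers. The counts without the 4 arrays were 1 higher and none lower in knockout livers, and 2 higher and none lower in wild-type livers. Their part in the changes of Pck1 and Pcx was not tested.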
